A study of Mus musculus with 2 samples.

Results

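The 9 genes described here are Ghr, Jak2, Stat5a, Stat5b, Stat3, Cish, Socs1, Socs2 and Socs3, which encode the growth hormone receptor, its kinase, 3 transcription factors that it or related receptors activate, and 4 inhibitors from the SOCS family. They are 9 of the 55536 GENCODE M21 genes quantified. They were selected by name, and with their measured levels and their spread over the animals already known, so the values below are a description and carry no test. Total RNA of the gastrocnemius, the main muscle of the calf, was sequenced in 2 males, both B6Cast F1 (C57BL/6J crossed with CAST/EiJ) and both 25 days old. Each library was made from 300 ng of RNA, and nothing in the labels tells of a treatment or a genetic change. The labels number the tissues as different males but give both the same donor entry, and the libraries are called animal 1 and animal 2 here. They form 1 group, so no condition was compared, and a ratio of animal 2 to animal 1 compares these libraries only.

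Growth hormone binds a pair of GHR molecules at the cell surface, which activates the JAK2 kinases attached to them. JAK2 phosphorylates the receptor and the STAT proteins docked on it, chiefly STAT5A and STAT5B, which then enter the nucleus and switch on genes such as Igf1, Cish and Socs2. CIS (the product of Cish) and the SOCS proteins are made in response to the signal and shut it off, by blocking docking sites, by inhibiting the kinase or by recruiting a ubiquitin ligase through their SOCS box. STAT3 serves mainly the interleukin-6 family of cytokines, and SOCS3 is its best known brake. STAT5 in skeletal muscle is known for its part in postnatal growth and in local Igf1 expression.

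For Cish and Ghr, the sequences at a splice site where annotated transcripts part are shown, because the groups of transcripts compared below differ there. For Cish the capitals mark the last 20 bases of the first exon of Cish-201, which Cish-202, Cish-203 and Cish-204 also hold and Cish-205 lacks, at chr9:107297015-107297034 on the plus strand of mm10. The lower-case letters are the bases that follow in each M21 transcript.
Cish-201: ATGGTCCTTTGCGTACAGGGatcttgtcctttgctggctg
Cish-202: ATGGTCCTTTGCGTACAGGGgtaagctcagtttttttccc
Cish-204: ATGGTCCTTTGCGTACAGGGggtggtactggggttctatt
Cish-201, the transcript of the 257-residue protein, joins the exon to the second exon, as does Cish-203, whereas Cish-204, with a frame of 62 residues, skips the second exon. Cish-202 reads straight on into the first intron and is annotated as non-coding.

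For Ghr the capitals mark the last 20 bases of an exon at chr15:3327974-3328142 on the minus strand, which the transcripts of both the membrane receptor and the short form contain. These 20 bases lie at chr15:3327974-3327993.
Ghr-201: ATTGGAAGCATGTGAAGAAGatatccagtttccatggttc
Ghr-203: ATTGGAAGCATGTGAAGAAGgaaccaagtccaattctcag
Ghr-201 continues into an exon at chr15:3325898-3325988 and encodes 650 residues. Ghr-203 continues into a nearer exon at chr15:3327525-3327686 and encodes 297 residues. In mice, such a short transcript encodes the growth hormone binding protein, a soluble form of the receptor's hormone-binding part.

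Levels are in TPM, each transcript's length-corrected share of the library on a fixed total. The libraries of animals 1 and 2 held 35098487 and 37428588 expected counts. All 9 genes passed the filter of a summed count of 20 or more, and 7 of them reached 1 TPM in both animals. Socs1 and Socs3 did not. Of all nuclear protein-coding genes, 45.1% reached 1 TPM in both animals. By mean TPM the order was Stat5b, Ghr, Cish, Stat3, Jak2, Socs2, Stat5a, Socs3 and Socs1. The ranges of 3 neighbouring pairs overlapped over the animals, namely Cish with Stat3, Socs2 with Stat5a, and Socs3 with Socs1. Ratios were formed from expected counts scaled by TMM, a scaling that puts the bulk of genes at equal levels. Their brackets are exact (Clopper-Pearson) 95% intervals that cover counting error only and not variation between animals.

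**Figure D1:**
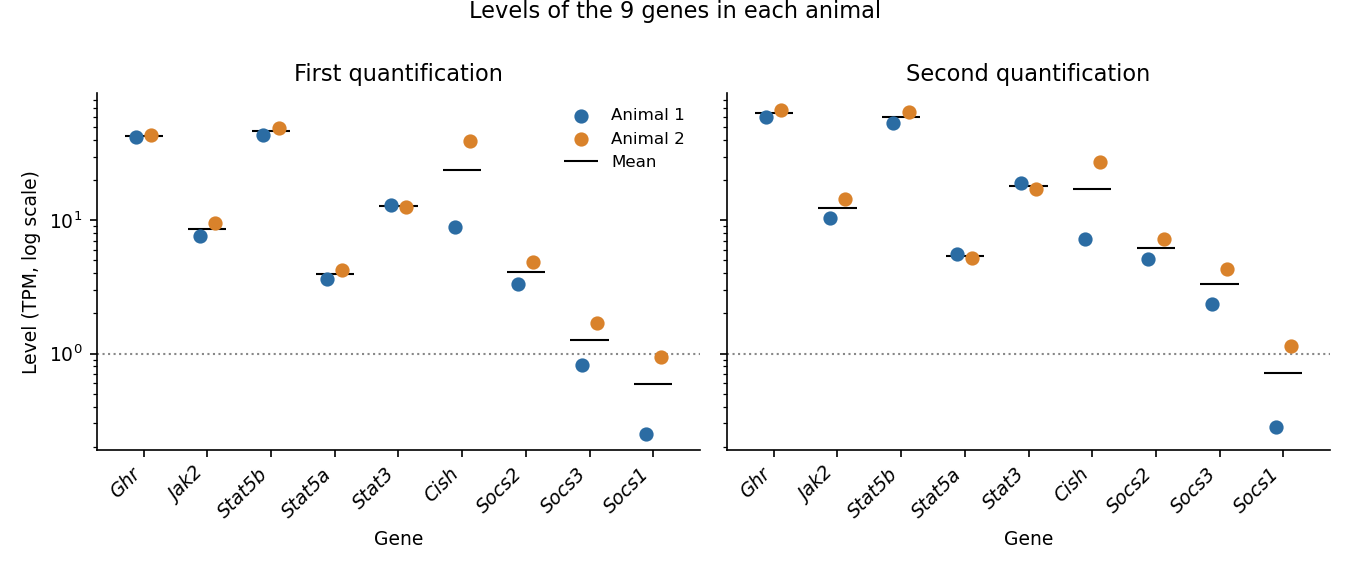
Deposited TPM of the 9 genes on a log axis, with 1 point for each animal. Stat5b and Ghr lie highest, at 43.9 and 49.3 TPM and at 42.0 and 43.9 TPM, while Cish, at 8.91 and 39.2 TPM, has the widest gap between the animals among the genes above 1 TPM in both.

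The receptor's message was among the most abundant of the 9 and nearly equal in both animals. Ghr (ENSMUSG00000055737.12, chr15:3317760-3583492, minus strand) stood at 42.0 TPM in animal 1 and 43.9 TPM in animal 2, 42.9 ± 1.36 TPM (SD, n = 2), from 3148 and 3488 counts. Of the nuclear protein-coding genes, 95.6% had a lower mean TPM. The scaled log2 ratio was -0.05 [-0.12, 0.02].

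Transcripts with the full-length frame of Ghr (Ghr-201 and Ghr-208) took 53.5% and 54.2% of the gene's TPM in animals 1 and 2, or 53.9% ± 0.461 (SD, n = 2). Those with the short frame (Ghr-202 and Ghr-203) took 36.6% and 37.0%, or 36.8% ± 0.284 (SD, n = 2). Both shares were thus nearly the same in the 2 animals, and neither the full-length group (log2 ratio -0.05 [-0.13, 0.03]) nor the short one (-0.04 [-0.22, 0.14]) differed beyond counting error. As shares of counts, which favour longer transcripts, the full-length frame took 81.2% and 81.4% and the short frame 15.1% and 15.3%.

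The second quantification, a separate set of transcript estimates deposited for the same libraries, gave 52.9% and 51.1% of Ghr TPM to the full-length frame and 34.7% and 31.1% to the short one. It divided the short frame differently. Ghr-203 had 34.1% and 36.5% of the gene in the first quantification and 11.7% and 13.5% in the second, while Ghr-202 had 2.5% and 0.5% in the first and 23.0% and 17.6% in the second. The sum of both was therefore used, a grouping chosen after the values were seen.

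**Figure D2:**
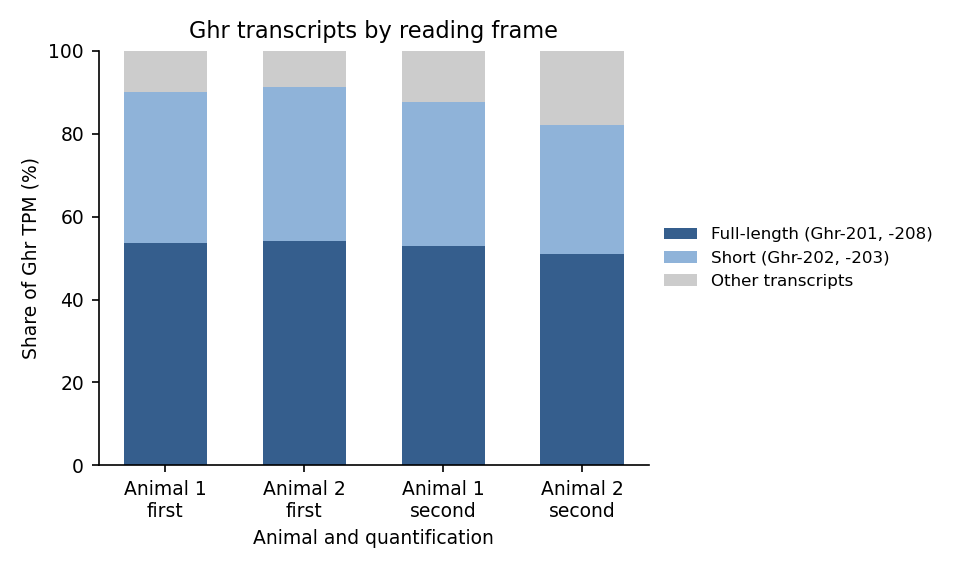
Share of Ghr TPM taken by the full-length reading frame, the short reading frame and all other transcripts, for each animal and each quantification. The full-length frame lies between 51.1% and 54.2% and the short one between 31.1% and 37.0%.

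Jak2 (ENSMUSG00000024789.13, chr19:29251828-29313080, plus strand), the kinase attached to the receptor, was less abundant than Ghr. It stood at 7.62 and 9.64 TPM, 8.63 ± 1.43 TPM (SD, n = 2), from 989 and 1333 counts. The log2 ratio was 0.23 [0.11, 0.35], so animal 2 was higher beyond counting error and far under 2-fold. The level of Ghr was 5.51 times that of Jak2 in animal 1 and 4.55 times in animal 2. In the first quantification, 2 transcripts made up the gene, 1 at 58.6% and 61.0% of its TPM and the other at 41.4% and 39.0%, and both encode the same 1132 residues. The second quantification placed them the other way round in animal 1, at 43.9% for the former and 54.3% for the latter.

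Of the STAT genes, Stat5b dominated. It stood at 43.9 and 49.3 TPM, 46.6 ± 3.78 TPM (SD, n = 2), from 5811 and 6613 counts, above 95.9% of protein-coding genes. Its log2 ratio was -0.02 [-0.07, 0.04]. Stat5a, whose protein is closely related, stood at 3.65 and 4.26 TPM, 3.96 ± 0.431 TPM (SD, n = 2), from 356 and 391 counts, with a log2 ratio of -0.07 [-0.28, 0.14]. The level of Stat5b was 12.0 times that of Stat5a in animal 1 and 11.6 times in animal 2, and 9.58 and 12.4 times in the second quantification. Stat3 lay between them at 13.1 and 12.7 TPM, 12.9 ± 0.276 TPM (SD, n = 2), with 1368 and 1468 counts and a log2 ratio of -0.10 [-0.21, 0.01]. The counting intervals of all 3 ratios included 0.

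The 3 STAT genes are neighbours on chromosome 11 of mm10. Stat5b (ENSMUSG00000020919.11, chr11:100780731-100850724, minus strand) and Stat5a (ENSMUSG00000004043.14, chr11:100859351-100885169, plus strand) point away from each other across 8626 bases. The end of Stat5a overlaps the end of Stat3 (ENSMUSG00000004040.16, chr11:100885098-100939540, minus strand) by 72 bases on the opposite strand. Whether counting used strand is not given in the sources used here, so reads in those 72 bases cannot be assigned with certainty.

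Most Stat5b came from Stat5b-202, with 86.0% and 81.9% of the gene in the first quantification and 58.9% and 57.7% in the second. The second gave more to Stat5b-201 (33.0% and 25.0%, against 2.3% and 2.0% in the first). Both encode the same 786 residues and differ in their first exons, so the split between them leaves the coding level as it was. Stat5b-203, annotated as non-coding, took 11.7% and 16.05% in the first quantification and 8.1% and 17.3% in the second. The transcript of Stat3 that encodes 770 residues took 70.0% and 74.2% of the gene. A transcript with 722 residues, the length of the truncated STAT3 beta form, took 2.3% and 1.6%. Stat5a was divided over several transcripts. Stat5a-201 and Stat5a-202, which share a frame of 793 residues, took 43.7% and 32.6% and 16.8% and 11.8%. Stat5a-203, the 797-residue frame, took 24.7% and 33.4%.

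The 4 SOCS-family genes were all higher in animal 2, and 3 of them (Cish, Socs1 and Socs3) were past 2-fold. None of the 9 genes was past 2-fold lower. The median log2 ratio was 1.32 over the 4 SOCS genes and -0.05 over the other 5, whose largest ratio in size was 0.23. Among all genes that passed the filter, 207 of 14754 (1.4%) were past 2-fold higher in animal 2 and 269 (1.82%) past 2-fold lower. Scaled by library totals instead, 271 were past 2-fold higher and 194 lower, and by the ratio of TPM 371 and 255. Among nuclear protein-coding genes, 135 of 12805 (1.05%) were past 2-fold higher and 153 (1.19%) lower. These shares are given as background only, since the genes were chosen with this difference known.

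**Figure D3:**
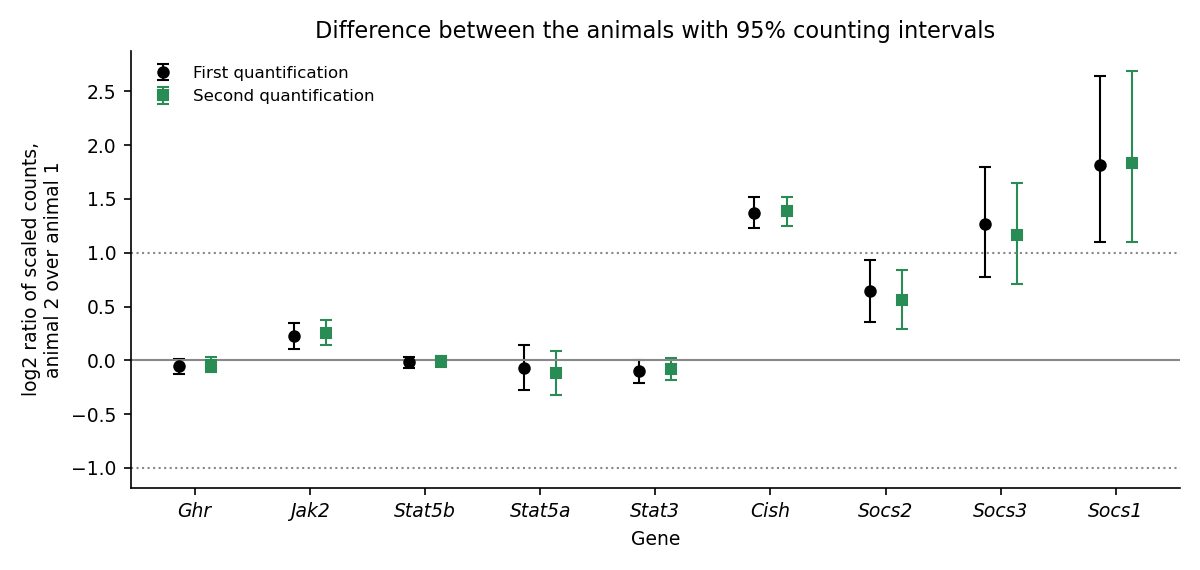
Log2 ratio of animal 2 to animal 1 for the 9 genes, from TMM-scaled counts, with 95% counting intervals, for both quantifications. The receptor, kinase and STAT genes lie within 0.23 of 0 in the first quantification, and Cish, Socs1 and Socs3 lie past 2-fold (log2 ratio of 1) in both.

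Cish had the most counts behind its difference. This gene (ENSMUSG00000032578.7, chr9:107296026-107302784, plus strand) encodes CIS, which binds phosphorylated receptor and thereby competes with STAT5. It stood at 8.91 TPM in animal 1 and 39.2 TPM in animal 2, from 538 and 1602 counts. Scaled counts differed 2.59-fold (2.35 to 2.86, log2 ratio 1.37), and 60 of 12805 protein-coding genes (0.469%) had a higher ratio. TPM differed more, by 4.40-fold (log2 ratio 2.14), because the deposited effective length of the gene, an average over its transcripts, was 2094 bases in animal 1 and 1337 bases in animal 2.

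The transcripts show where the lengths differed. Cish-202 keeps 2772 of the 2889 bases of the first intron (chr9:107297035-107299923), and it had 316 counts in animal 1 and 272 in animal 2. The other 4 transcripts of Cish together had 222 counts in animal 1 and 1330 in animal 2. Cish-202 was thus slightly lower in animal 2 (log2 ratio -0.42 [-0.66, -0.18]), while the other transcripts were 5.20-fold higher (4.51 to 6.03, log2 ratio 2.38). The second quantification gave -0.41 for Cish-202, from 365 and 310 counts, and 5.40-fold (4.72 to 6.22) for the rest, from 243 and 1489 counts. The share of Cish counts on Cish-202 was 58.8% and 17.0% in the first quantification and 60.0% and 17.3% in the second.

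The quantifications differed in how they placed the other reads of Cish. The first gave Cish-201 28.4 and 423 counts and Cish-204 159 and 707 counts, whereas the second gave Cish-201 201.3 and 1417 counts and Cish-204 42.0 and 69.1 counts. Cish-205, a transcript of 371 bases, took 25.8% and 51.4% of the gene's TPM in the first quantification, from 18.0 and 168 counts, and had 0 and 2.86 counts in the second. The grouping into Cish-202 and all others was chosen after these values were seen, and counting intervals do not cover the assignment of reads to transcripts. Reads from unspliced Cish RNA in the first intron and reads from Cish-202 cannot be told apart in these tables. On the opposite strand, Gm17041 had 0 counts in both animals and Gm17040 had 3 and 8.

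**Figure D4:**
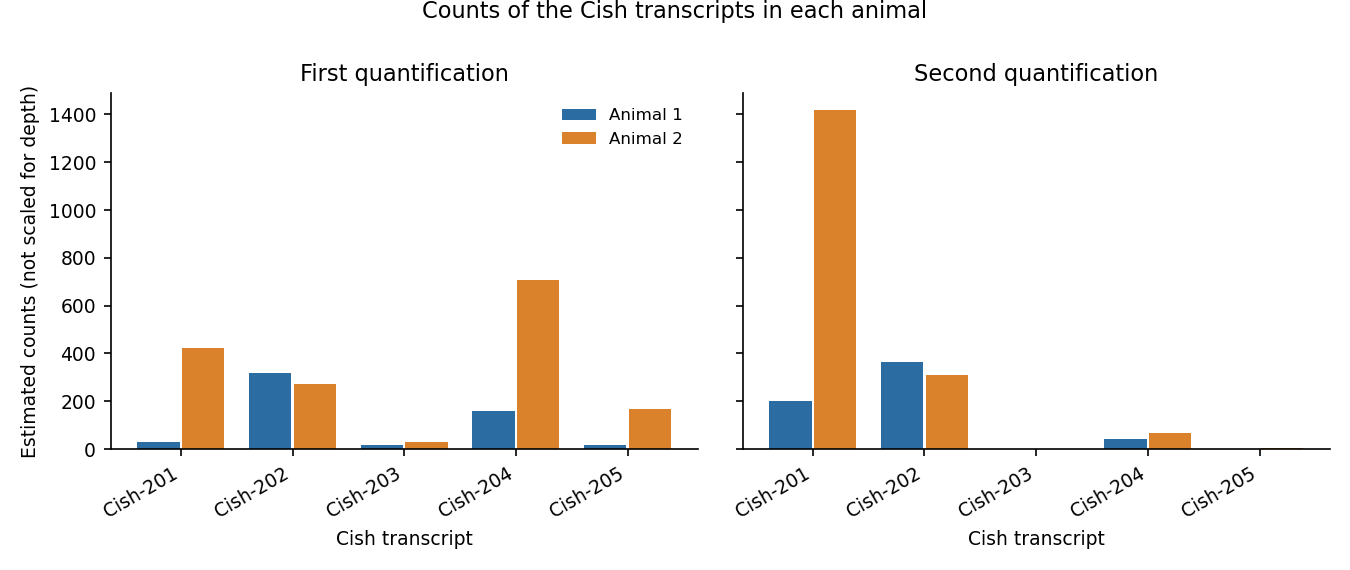
Estimated counts of the Cish transcripts in each animal, not scaled for depth, for the first and the second quantification. Cish-202, which keeps most of the first intron, has 316 and 272 counts in the first quantification, while the remaining transcripts together go from 222 to 1330.

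Socs2 (ENSMUSG00000020027.18, chr10:95385362-95417180, minus strand), a feedback inhibitor of growth hormone signalling whose loss in mice gives large animals, had the smallest difference of the 4 chosen SOCS genes. It stood at 3.32 and 4.86 TPM, 4.09 ± 1.09 TPM (SD, n = 2), from 159 and 286 counts. The log2 ratio was 0.64 [0.36, 0.93], above counting error and under 2-fold, and 2.80% of protein-coding genes had a higher ratio. Transcripts with the frame of 198 residues took 66.6% and 69.7% of Socs2 TPM.

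Socs3 (ENSMUSG00000053113.3, chr11:117966079-117970047, minus strand), which inhibits JAKs bound to the interleukin-6 receptor subunit gp130, was low in both animals. It stood at 0.82 and 1.71 TPM from 46 and 128 counts. Scaled counts were 2.40-fold higher in animal 2 (log2 ratio 1.27 [0.78, 1.79]), and 0.547% of protein-coding genes had a higher ratio. In the second quantification, Socs3 had 2.36 and 4.30 TPM, a log2 ratio of TPM of 0.86, which is under 2-fold, although its scaled counts gave 1.16.

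Socs1 (ENSMUSG00000038037.5, chr16:10782240-10785536, minus strand), a direct inhibitor of JAK kinases that is best known for restraining interferon signalling, was the lowest of the 9 genes. It stood at 0.25 and 0.94 TPM from only 19 and 78 counts. The scaled ratio was 3.51-fold, and the low counts left an interval of 2.14 to 6.24. Of protein-coding genes, 0.187% had a higher ratio. In the first quantification its level was below the 1 TPM threshold in both animals, so the ratio describes a small number of reads. The second quantification gave Socs1 0.28 and 1.13 TPM from 18 and 74 counts, with a scaled log2 ratio of 1.83.

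RefSeq promoter sequences (GRCm38.p6), searched over the 250 bases before each start, held 11 windows for 8 of the 9 genes; Socs2 had no entry. The letters TTCNNNGAA, the core of the sequence that STAT dimers bind, read the same on both strands. They were found in 1 of the 8 genes, Socs3, starting 154 bases before its start, against 8.13% of the 27025 genes in the table. Of all 32851 windows of that length, 7.02% held them. The Socs3 match is shown in capitals, with flanking bases, from chr11:117969503-117969529 on the minus strand.
Socs3: aaaccagccTTCTTAGAAgggaggggg
No match in the other windows says only that these letters are not in those 250 bases. The Cish window lay before chr9:107296659. The bases just before other annotated starts, such as that of Cish-203 at chr9:107296912, were not searched.

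The rest of the pathway was described with 8 lists that hold 115 genes in all. Of these, 78 were detected, meaning at 1 TPM or more in both animals, and 95 passed the count filter. By the same threshold, 9937 nuclear protein-coding genes (45.1%) were detected, which is the background for the detection counts of each list below. Among those 95, 0 were past 2-fold higher in animal 2 and 7 (7.37%) past 2-fold lower, beside 1.4% and 1.82% of all genes, and the median log2 ratio was -0.03. The lower calls depended on the scaling, with 3 left by library totals, and the ratio of TPM gave 1 higher and 2 lower. Bcl6 and Mt2 were past 2-fold lower by every scaling, in the second quantification and by the ratio of TPM.

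Messages for the ligands were scarce in the muscle. Of 19 ligand genes, 3 were detected, led by Ctf1 (cardiotrophin-1, 5.82 and 5.38 TPM), Il15 (1.28 and 1.81 TPM) and Thpo (1.01 and 1.18 TPM). Gh, which encodes growth hormone itself, and Prl, which encodes prolactin, were among the 9 with 0 counts in both animals. Lep, which encodes leptin, was past 2-fold lower in animal 2 but on 18 and 10 counts, with an interval of -2.33 to 0.14 on the log2 scale.

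Of 24 other cytokine receptor genes, 13 were detected. The highest were Il6st, which encodes the shared subunit gp130 (47.9 and 51.3 TPM), Ifngr2 (25.8 and 27.9 TPM) and Lifr (18.8 and 17.5 TPM), each nearly equal in both animals. Il6ra, which encodes the interleukin-6 binding subunit, was past 2-fold lower in animal 2 (2.18 and 1.21 TPM, log2 ratio -1.04 [-1.31, -0.77]), just beyond the threshold and at -0.96 in the second quantification. The median log2 ratio of the 19 receptors that passed the filter was -0.14.

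Among the other kinases and STATs, none of the 5 described genes that passed the filter was past 2-fold. Jak1 was the most abundant, at 35.8 and 37.6 TPM, and its level was 4.69 and 3.90 times that of Jak2. Stat6 stood at 6.00 and 6.47 TPM.

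The SOCS genes outside the chosen 9 lay closer to equal. Because the 9 were chosen with their spread between the animals known, this contrast is a description and not a test. Socs7 (14.0 and 15.2 TPM), Socs6 (13.3 and 15.04 TPM) and Socs5 (3.36 and 4.50 TPM), the 3 highest of the 4, had log2 ratios of 0.12, 0.06 and 0.42. All 4, Socs4 included, were above 0 and under 2-fold, with a median of 0.11. The genes of the ligase that SOCS boxes recruit were all detected, 8 of 8, with a median log2 ratio of 0.04, and the highest were Elob (89.4 and 104.5 TPM), Nedd8 (67.1 and 74.8 TPM) and Eloc (54.3 and 54.5 TPM).

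Of 20 phosphatases, adaptors and other brakes, 18 were detected and the median log2 ratio was -0.01. Dusp3 (47.8 and 52.3 TPM), Grb10 (29.5 and 30.8 TPM) and Ptpn11 (23.1 and 29.5 TPM) were the highest. Irs2, an adaptor of insulin and cytokine receptors, was lower in animal 2 (9.35 and 4.96 TPM, log2 ratio -1.03 [-1.15, -0.92]). Ptpn6, which encodes the phosphatase SHP-1, was past 2-fold lower on only 22 and 11 counts, while its TPM was 0.53 and 0.58, slightly higher in animal 2, so its direction depends on the unit.

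Known STAT5 targets outside the chosen genes were spread around 0. Cish and Socs2, which STAT5 also switches on, were not in this list and had log2 ratios of 1.37 and 0.64. Of the 18 listed targets, 10 (55.6%) had ratios above 0, beside 49.7% of all genes. None was past 2-fold higher, beside 1.4% of all genes. The median was 0.04, which became -0.02 in the second quantification. Ccnd1, which encodes cyclin D1, had the highest ratio of the list, at 0.82 by scaled counts and past 2-fold by TPM (1.89 and 4.45 TPM, log2 ratio of TPM 1.24). It was named after its values were seen. Igfbp5, a binding protein of insulin-like growth factors, was the highest, at 112.8 and 107.2 TPM (log2 ratio -0.19). Cdkn1a, a cell-cycle inhibitor, stood at 17.7 and 16.4 TPM. Bcl6, a repressor that STAT5 is known to hold down in liver, stood at 30.9 TPM in animal 1 and 14.3 TPM in animal 2, from 3054 and 1500 counts, a log2 ratio of -1.23 [-1.32, -1.14]. Igf1, the growth factor best known as a growth hormone target, was at 10.3 and 11.5 TPM with a log2 ratio of 0.09 [-0.01, 0.20]; it lies outside the rule for named genes and was added after its values were seen.

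STAT3 targets outside the chosen genes were mostly lower in animal 2. Of their ratios, 3 of 18 were above 0 and the median was -0.33, beside 49.7% of all genes above 0. Socs3, the brake on STAT3 signalling, was not in this list and had a log2 ratio of 1.27. By the ratio of TPM, 7 of 18 were above 0 and the median was -0.17, while the median of all genes was 0.11 on that scale. Mt2 (69.9 and 24.1 TPM, log2 ratio -1.67) and Mt1 (48.8 and 24.9 TPM, log2 ratio -1.09), which encode metallothioneins that glucocorticoids and metals also induce, were past 2-fold lower. The log2 ratio of TPM was -1.54 for Mt2 and -0.97 for Mt1, so Mt1 was under 2-fold on that scale. Trim63, which encodes the muscle ubiquitin ligase MuRF1, stood at 140.5 and 99.1 TPM, and Vegfa stood at 55.2 and 66.5 TPM.

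**Figure D5:**
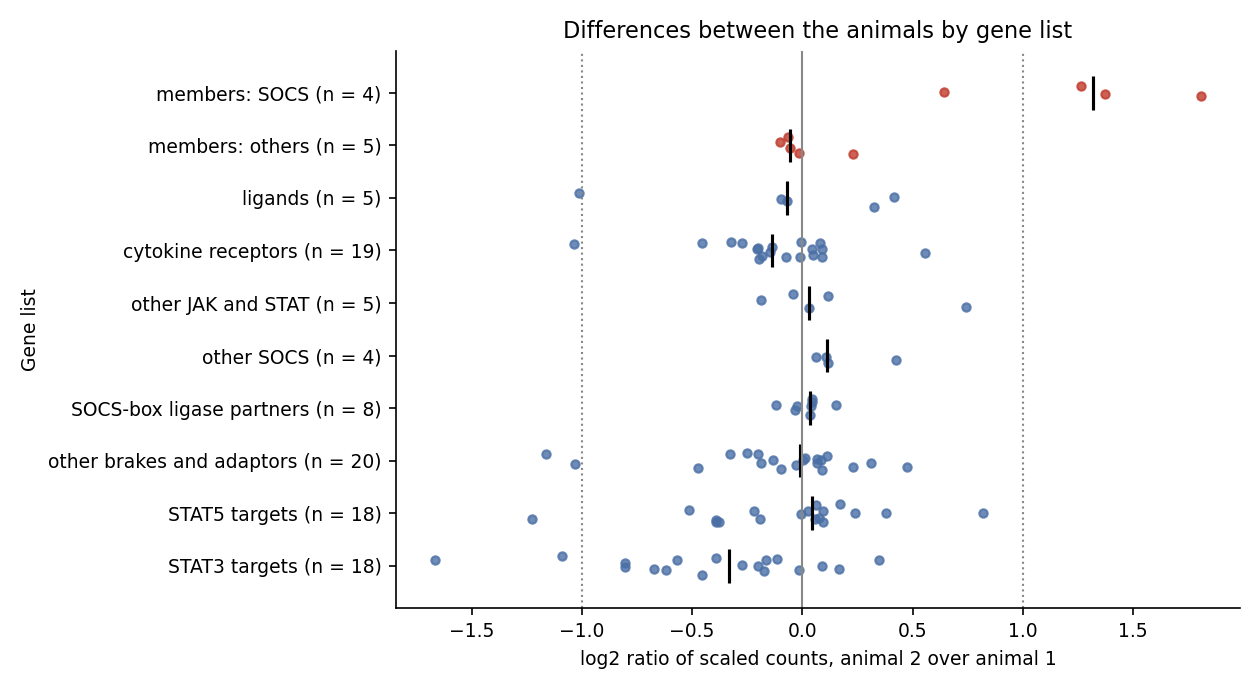
Log2 ratio of animal 2 to animal 1 for each gene that passed the count filter, by group, with the 9 chosen genes divided into SOCS genes and the rest. The SOCS genes have a median of 1.32, while the medians of the 8 other lists lie between -0.33 and 0.11. The lists leave out the 9 genes, which were chosen with their spread known, so this contrast is not a test.

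The samples were whole muscle, in which fewer cells of a type and less RNA per cell cannot be told apart. Muscle fibre markers were all detected, 8 of 8, and their summed level was 98503 and 98425 TPM. Such a sum is led by the most abundant markers. Myh7 stood at 230 and 395 TPM (log2 ratio 0.70 [0.68, 0.72]) and was the only fibre marker with a ratio above 0. Myh4 and Tnnt3 had log2 ratios of -0.25 and -0.26. Leukocyte markers summed to 12.4 and 11.6 TPM, with 2 of 8 detected and the lymphocyte markers Cd3e and Cd79a at or near 0. Endothelial markers summed to 41.8 and 52.0 TPM, mural markers to 106 and 123 TPM, and satellite cell markers to 10.9 and 12.5 TPM. Fibroblast markers summed to 1235 and 832 TPM. Of these, Col1a1 had 864 and 469 TPM, while Pdgfra, Dcn, Lum and Col3a1 were each nearly equal in TPM. Tendon markers summed to 141 and 107 TPM, with Fmod at 67.3 and 41.8 TPM, and 1 of 4 (Scx) had a ratio above 0. Adipocyte markers summed to 5.0 and 2.38 TPM. Schwann cell markers moved in the direction of the SOCS genes, with 5 of 5 higher in animal 2 and a sum of 53.3 and 107 TPM. The part of any of these cell types in the SOCS differences was not tested.

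The protein-coding genes whose levels in the 2 animals were nearest to those of Cish, by distance in log2(TPM + 1) over 2 samples, were Gm34302 (14.5 and 32.5 TPM), Gm10273 (14.8 and 53.1 TPM) and Mbp (14.0 and 24.8 TPM), at distances of 0.693, 0.797 and 0.880. Mbp encodes myelin basic protein and is 1 of the Schwann cell markers. Gm34302 was at 0 TPM in both animals in the second quantification, and Gm10273 was at 4.47 and 0 TPM there, so the likeness of these 2 genes to Cish held only in the first. In the second quantification, Mbp stood at 16.6 and 30.8 TPM and Cish at 7.30 and 27.4 TPM. The scaled log2 ratio in the first was 0.79 for Mbp and 1.37 for Cish, so Mbp was near Cish in level more than in ratio.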

How the data were processed

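Gene and transcript tables of 2 libraries were used. Expected counts and TPM in the first quantification were computed by the authors, in the columns RSEM writes, per the file headers. The percent of a gene's abundance on each transcript, and the posterior mean TPM (a signal that is never negative), come from the same deposited tables. In the second quantification, whose headers match those of kallisto, the authors deposited estimated counts and TPM per transcript, which were summed to genes. The build is mm10 and the annotation GENCODE M21, per the descriptions deposited beside them. Which tools, versions and strand settings were used is not given in the sources used here. Reads of these F1 animals were quantified on 1 reference annotation, and any effect of CAST/EiJ alleles was not tested.

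Expected counts were rounded to whole numbers, scaled by TMM (edgeR 4.0.16, R 4.3.3), and given a prior count of 0.5. Genes whose counts summed to at least 20 were kept, and a ratio past 2-fold was called. The limit that 0 counts allows is 3 counts, which is 0.0855 CPM in animal 1 and 0.0802 CPM in animal 2. Spike-ins took 0.543% and 0.573% of counts. Intervals are exact (Clopper-Pearson) at 95%, and cover counting error alone, as no molecular identifiers mark independent molecules. The interval step was run on simulated counts drawn with counting error alone, the error that the intervals assume. They covered 95.6% of the 14763 simulated ratios. That run checks the computation only, and cannot show how much other error the real counts carry. With 1 group of 2 animals, no test was made.

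The 9 genes and all lists were chosen with earlier results of these data known, and 1 gene and 1 list are not reported here. Named genes are the 9, the 3 highest genes of each list, every list gene past 2-fold, and the 3 protein-coding genes nearest to Cish. For transcripts, the highest in each quantification and those at 10% or more of the gene in both animals qualified, though not all of these are named. Others are named where a grouping needs them. Alternatives tried were DESeq2 1.42.0 size factors, library totals, spike-in counts, ratios of TPM, the second quantification, posterior means, TPM rescaled to nuclear protein-coding genes, a prior count of 2, no count filter, detection at 0.5 or 2 TPM, and leaving out each animal. TPM ratios of single genes and of the lists used no pseudocount. A pseudocount of 0.01 was used for the 371 and 255 genes past 2-fold by TPM. Without it, 364 and 260 of the 14721 genes with a ratio were past 2-fold higher and lower. FPKM was not used. Members sharing reads with overlapping genes are uncertain.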

Additional observations from a re-analysis of the deposited data

How the results depend on the processing

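None of the 3 chosen genes called past 2-fold changed direction under any alternative run, and 3 of the 9 genes were past 2-fold under each scaling, with either prior count and in both sets of counts. No paired analysis was possible because the series has 1 group. The ratio of TPM gave a log2 ratio of 2.14 for Cish, 0.065 for Ghr, 0.22 for Stat5a and 0.17 for Stat5b, and the same ratio in the second quantification gave 1.91 for Cish, 0.17 for Ghr, 0.45 for Jak2 and 0.27 for Stat5b. Library totals gave 0.056 for Ghr, 0.0095 for Stat3 and 0.094 for Stat5b. The small ratios of Ghr, Stat3, Stat5a and Stat5b changed sign with the scaling, and that of Jak2 did not. The scaling moved the median of protein-coding genes from 0.003 (TMM) to 0.11 (library totals) and 0.12 (ratio of TPM). In the second quantification the mean TPM was 6.20 for Socs2, 3.33 for Socs3, 64.0 for Ghr, 12.5 for Jak2, 18.1 for Stat3, 5.44 for Stat5a and 59.6 for Stat5b, so Ghr came before Stat5b and Stat3 before Cish. The Ghr shares there were 52.0% for the full-length and 32.9% for the short frame. Ptpn6, called lower by counts, had a log2 ratio of TPM of 0.13. The counts and medians of the pathway lists under other scalings were added after seeing the data. The posterior mean TPM of Stat3 was 14.8. With no count filter, 2810 genes were past 2-fold higher and 2762 lower, and the ratio of TPM put 371 higher. The cause of these shifts was not tested, except that the last filter adds genes with few counts. The low counts of Socs1 and Socs3 limit their ratios.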
